A study of Homo sapiens with 8 samples.

Results

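The broad domains described here are the H3K27ac peaks that span 20 kb or more in CFPAC1 cells, a widely used line derived from a human ductal adenocarcinoma of the pancreas. They were chosen by width alone from 1 deposited table of peaks shared by all libraries, whatever gene start they hold, and numbered 1450 of 31961 peaks. H3K27ac, acetylation of histone H3 at lysine 27, was mapped by ChIP-seq (sequencing of the DNA pulled down with an antibody, here ab4729). The 8 libraries came from 4 clonal lines, all grown from cells infected with the lentiCRISPRv2 plasmid. IRF1-guide clones 11 and 13 carried it with wild-type Cas9 and a guide RNA against IRF1, and control clones 1 and 4 carried the plasmid with no guide named. Each clone gave 1 library treated for 2 hours with hIFNb (taken to be interferon beta) and 1 untreated library, so that the groups were IRF1-guide with hIFNb, IRF1-guide untreated, control with hIFNb and control untreated, with 2 libraries each. The labels do not say whether the IRF1 protein is lost in a guide clone, and each line is 1 clone, so that p-values measure the spread between 2 clones of a kind. The study's title concerns IRF1 and metabolism, and the comparisons ask which domains changed with hIFNb and which differed between IRF1-guide and control clones.

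H3K27ac marks active promoters and enhancers. Long unbroken stretches of it, often described as stretch or super enhancers, are known to lie near genes that define a cell type and near strongly transcribed genes. Type I interferons signal through the kinases JAK1 and TYK2 to a complex that includes STAT2 and IRF9 and binds the interferon-stimulated response element, a pair of GAAA repeats, in the promoters of antiviral genes. IRF1 is itself induced by interferons and binds closely related sequences, and in epithelial cells it takes part in antigen presentation and antiviral defence. The libraries are averages over whole cultures, so that a small change in every cell and a large one in some cells cannot be told apart.

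To show regulatory sequence inside the domains that changed most with hIFNb, promoters of coding genes in them are printed. The limit was 4 promoters from the largest rises and 2 from the largest falls. Each is given 5′ to 3′, from 250 bases before to 50 bases after the annotated start (RefSeq, GRCh38.p14). Capitals mark matches, on either strand, to 4 motifs: the interferon-stimulated response element (GAAA, any 2 bases, GAAA), TTCNNNGAA (the site bound by STAT dimers), TGANTCA (AP-1) and TGTTTAC (forkhead). No matches overlapped in these 6 promoters. The first 4 genes lie in domains that rose and the last pair in domains that fell. Not every coding gene of these domains is shown. The TYMP domain also holds SCO2, which had no promoter entry, and CIMAP1B and KLHDC7B, which came after the limit was reached.
IFIT1, chr10:89392373-89392672, plus strand: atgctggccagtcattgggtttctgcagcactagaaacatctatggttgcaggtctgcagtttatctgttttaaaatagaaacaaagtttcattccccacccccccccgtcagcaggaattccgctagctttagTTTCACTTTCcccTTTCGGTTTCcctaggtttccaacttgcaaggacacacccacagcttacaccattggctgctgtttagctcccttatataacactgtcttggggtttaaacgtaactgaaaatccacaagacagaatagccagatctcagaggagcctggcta
IFIT1B, chr10:89377806-89378105, plus strand: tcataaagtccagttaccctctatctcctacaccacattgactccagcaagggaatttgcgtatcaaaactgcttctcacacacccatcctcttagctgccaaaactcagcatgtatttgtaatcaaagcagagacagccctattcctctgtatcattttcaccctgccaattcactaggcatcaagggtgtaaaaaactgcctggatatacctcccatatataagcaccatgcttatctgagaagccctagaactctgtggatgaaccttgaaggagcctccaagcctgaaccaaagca
FCHSD2, chr11:73142269-73142568, minus strand: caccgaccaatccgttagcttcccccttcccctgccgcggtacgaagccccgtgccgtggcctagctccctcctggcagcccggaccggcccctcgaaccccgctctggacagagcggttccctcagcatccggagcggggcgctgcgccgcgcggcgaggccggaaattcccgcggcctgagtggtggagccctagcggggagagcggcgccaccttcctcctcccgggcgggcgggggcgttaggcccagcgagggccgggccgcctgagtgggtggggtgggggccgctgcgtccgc
TYMP, chr22:50530036-50530335, minus strand: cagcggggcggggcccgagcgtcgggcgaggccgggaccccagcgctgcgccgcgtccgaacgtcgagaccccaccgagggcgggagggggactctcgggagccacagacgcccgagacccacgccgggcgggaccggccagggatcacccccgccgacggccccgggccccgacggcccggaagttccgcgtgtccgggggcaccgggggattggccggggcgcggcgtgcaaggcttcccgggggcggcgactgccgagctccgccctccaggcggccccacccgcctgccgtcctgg
SLC14A1, chr18:45723931-45724230, plus strand: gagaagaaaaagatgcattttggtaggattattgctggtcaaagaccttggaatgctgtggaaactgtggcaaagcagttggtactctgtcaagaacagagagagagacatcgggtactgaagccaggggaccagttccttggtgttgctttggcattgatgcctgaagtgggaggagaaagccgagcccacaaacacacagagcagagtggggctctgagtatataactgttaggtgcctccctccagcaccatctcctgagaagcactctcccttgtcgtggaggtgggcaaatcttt
ANKRD1, chr10:90921038-90921337, minus strand: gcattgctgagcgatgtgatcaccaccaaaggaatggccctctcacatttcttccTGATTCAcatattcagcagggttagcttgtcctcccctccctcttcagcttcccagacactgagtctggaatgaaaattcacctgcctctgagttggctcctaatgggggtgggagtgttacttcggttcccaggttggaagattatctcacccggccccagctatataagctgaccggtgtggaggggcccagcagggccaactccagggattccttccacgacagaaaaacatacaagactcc

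The IFIT1 promoter held 2 matches to the response element, both on the reverse strand and starting 116 and 103 bases before the annotated start. ANKRD1 held 1 match to TGANTCA, and the other 4 promoters held none of these letters. Over the 34796 distinct promoter sequences of the RefSeq table, 3.57% held the response element, 7.67% TTCNNNGAA, 7.73% TGANTCA and 3.42% TGTTTAC. These were taken whatever the type of gene, whereas the promoters from domains counted next are 1 per coding gene, so the sets are unlike. The response element was found in 6 of the 50 promoters with a sequence (12%) from domains called higher with hIFNb, in none of the 8 from domains called lower, and in 13 of the 501 (2.59%) from domains that were not called. TTCNNNGAA was found in 6 of the 50 (12%), in none of the 8 and in 23 of the 501 (4.59%). TGANTCA was found in 4 of the 50 (8.0%), in 1 of the 8 and in 33 of the 501 (6.59%), and TGTTTAC in 2 of the 50 (4.0%), in none of the 8 and in 13 of the 501 (2.59%). A match says only that these letters are present in the window.

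Although they were 1450 of 31961 peaks, the broad domains covered 49.3 Mb, or 25.8% of all sequence inside peaks. Their widths ran from 20001 to 232669 bp with a median of 28187.5 bp. The deposited values are normalised peak counts, called scores here, and wide peaks also held more score per kb. The median was 20.5 score units per kb in the domains and 13.5 in the 30511 narrower peaks. Together the domains held 34.0% and 33.7% of all score in IRF1-guide clones 11 and 13 with hIFNb, against 35.02% and 34.2% untreated, and 34.2% and 33.0% in control clones 1 and 4 with hIFNb, against 35.3% and 34.6% untreated. The share was lower with hIFNb in each of the 4 clones. No p is given for this sum over the domains. Just inside the limit of 20 kb lay domains of 20001, 20030 and 20036 bp with mean scores of 196.0, 274 and 487, and just outside it lay peaks of 19997, 19985 and 19978 bp with mean scores of 288, 317 and 321.

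**Figure D1:**
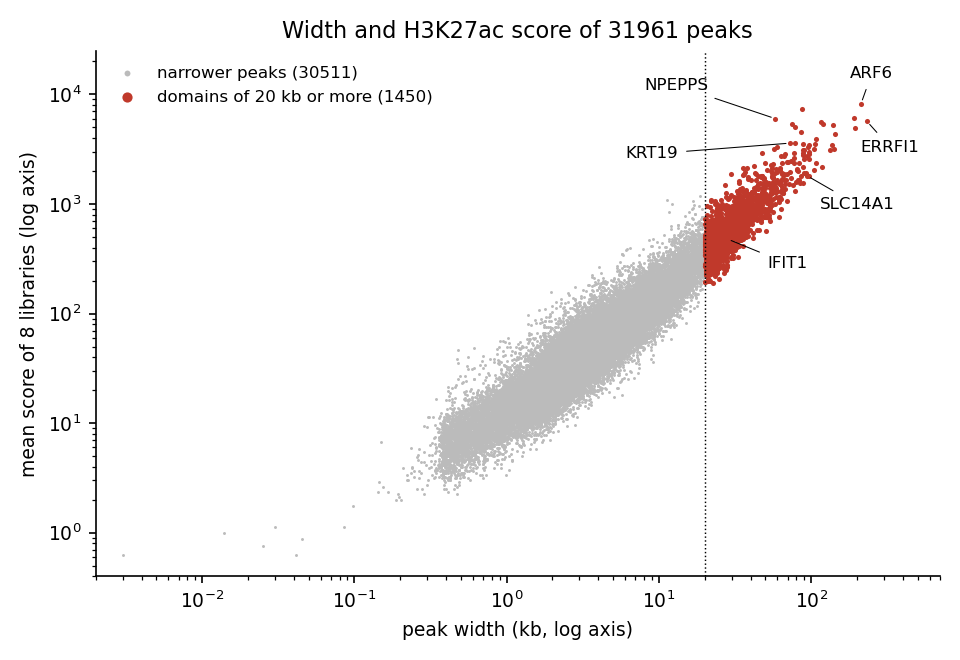
Mean score over the 8 libraries against peak width, both on log axes, for all 31961 peaks, with the 1450 broad domains in red, narrower peaks in grey and the limit of 20 kb as a dotted line. Score rose with width without a break at 20 kb, and the ARF6 domain stood highest at 8201.

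The widest domain, chr1:8009641-8242309 (232669 bp), held the start of ERRFI1, an inhibitor of the EGF receptor. It was followed by chr14:49860103-50072723 (212621 bp) with ARF6, a small GTPase of membrane traffic, and by chr10:33105911-33299883 (193973 bp) in the body of NRP1, a co-receptor for VEGF and semaphorins. Others of the 10 widest held SMAD3, the TGF-beta signal transducer (192741 bp), WWTR1, a Hippo pathway coactivator also called TAZ (143315 bp), and PLAAT3, PLAAT4, PLAAT2 and LGALS12 (133038 bp). One lay in the body of PTPN14, a phosphatase that acts on the Hippo pathway (141090 bp), 1 held the pseudogene RPL21P7 (139272 bp), and 2 lay around the MYC locus, with the long non-coding RNA CCAT1 (120522 bp) and the transcript TMEM75 (137434 bp). The MYC gene itself lay in a separate domain of 23786 bp with a mean score of 541, well below the 5380.2 of the CCAT1 domain. None of these was called for a change with hIFNb. The clone was also used as block, in a fit that compares each clone's treated library with its own untreated one. It called lower 40.2% of all 1450 domains and 15.9% of all peaks. That fit called lower 4 of the 10 widest domains, those of ERRFI1 (adjusted p = 0.000445), in PTPN14 (adjusted p = 2.85e-05), of RPL21P7 (adjusted p = 0.00327) and of CCAT1 (adjusted p = 0.000569, all by limma).

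By score the ARF6 domain was highest, with 7593 and 8083 in IRF1-guide clones with hIFNb, 7260 and 8057 in the same clones untreated, 9105 and 8583 in control clones with hIFNb and 8589 and 8341 in control clones untreated. Next came the MRPL45 domain (mean 7294), then SMAD3 (6106), NPEPPS (6011), ERRFI1 (5679) and MIR21 (5552). The NPEPPS domain, chr17:47490416-47548492, also had the highest score per kb of all domains, 103. NPEPPS, a cytosolic aminopeptidase, has a near-identical copy, NPEPPSP1, which lies in the MRPL45 domain, and reads of these copies may have been shared between them by the alignment, so both scores are uncertain. CELA3B and CELA3A, elastase genes of pancreatic acinar cells, lay in a domain with a mean score of 5341. Scores per kb ran from 8.23 to 103 over all domains.

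A coding start lay inside 534 of the 1450 domains (36.8%), against 8081 of the 30511 narrower peaks (26.5%). A further 418 domains touched a coding gene's body without its start, and 498 (34.3%) lay outside coding genes. More than 1 coding start lay in 97 domains. The largest number, 9, was in chr6:27805648-27841911, where histone genes lie in a cluster (H2BC13, H2AC13, H3C10, H2AC14, H2BC14, H4C11, H4C12, H2AC15 and H2BC15), with a mean score of 1195. Neighbouring domains were not independent. In 130 pairs, involving 243 domains, the gap was 10 kb or less. Across those pairs the log2 changes with hIFNb correlated at r = 0.668, a description over pairs that share libraries. In the 6 pairs with both domains called the direction was the same, and in 22 pairs only 1 domain was called.

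As a check of the cell type, 8 of 10 markers of ductal epithelium had their start in a peak, and 4 of them in a broad domain, KRT7, KRT8 and KRT19 among them. KRT19, a keratin of ductal cells, shared the domain chr17:41482318-41555168 with KRT15, KRT13 and KRT36. Its scores were 3421 and 3135 in IRF1-guide clones with hIFNb and 3342 and 3151 untreated, and 3997 and 3534 in control clones with hIFNb and 4201 and 3935 untreated. Of 26 markers of other cell types, 6 had their start in any peak and 2 in a broad domain, CELA3A and CPA1, both made by acinar cells. Of 12 housekeeping genes, 10 lay in a peak and none in a broad domain.

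After 2 hours of hIFNb, 108 domains rose and 104 fell, of 1450. The largest rises were at the antiviral gene IFIT1, at the non-coding RNA LINC02068, at FCHSD2 and in a gene-poor stretch of chromosome 5, with log2 changes from 1.65 to 2.22. The falls were smaller, and most lay outside coding genes. The calls are contrasts of the 4 libraries with hIFNb against the 4 untreated libraries, tested by limma on log2(score + 1) at an adjusted p under 0.05 over all 31961 peaks. Of the domains, 7.45% were called higher and 7.17% lower. The same test called 6.55% of all peaks higher and 2.58% lower, in total 9.13%. Blocking on the clone, so that each clone's 2 libraries are set against each other, 278 domains rose and 583 fell, and of all peaks 16.6% rose and 15.9% fell, 32.4% in all. With libraries scaled to a common median score, 81 rose and 175 fell. That scaling also moved the median log2 change of all peaks by -0.08, and the share of all peaks called under it was not counted.

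The IFIT1 domain, chr10:89365852-89394000, spans 28149 bp and holds the starts of IFIT1B and of IFIT1, whose protein binds viral RNA. Its scores were 838 and 752 in IRF1-guide clones 11 and 13 with hIFNb, against 165 and 141 in the same clones untreated, and 789 and 776 in control clones 1 and 4 with hIFNb, against 189 and 184 untreated. All 4 libraries with hIFNb lay far above all 4 untreated ones. With hIFNb the clones of both kinds overlapped, while untreated the IRF1-guide clones scored below the control clones. The log2 change was 2.22 ± 0.11 (SE of the fit, adjusted p = 2.59e-05 by limma). The IFIT1 promoter printed above, with 2 matches to the response element, lies inside it.

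LINC02068 lies in chr3:172577762-172603508, with its edge 54.3 kb from the start of TNFSF10, which encodes the death ligand TRAIL. The scores were 540 and 681 in IRF1-guide clones 11 and 13 with hIFNb, against 171 and 222 in the same clones untreated, and 872 and 790 in control clones 1 and 4 with hIFNb, against 192 and 160 untreated. Both kinds of clone scored more with hIFNb, and with hIFNb the control clones stood higher. The change was 1.93 ± 0.14 (adjusted p = 6.97e-05 by limma).

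FCHSD2 encodes an adaptor of endocytosis, and its domain, chr11:73138873-73160327, scored 321 and 345 in IRF1-guide clones 11 and 13 with hIFNb, against 96 and 135 in the same clones untreated, and 580 and 477 in control clones 1 and 4 with hIFNb, against 115 and 156 untreated. The groups did not overlap, with a log2 change of 1.75 ± 0.16 (adjusted p = 0.000212 by limma). The domain chr5:130534038-130560902 has no coding start within 604 kb. It scored 896 and 1107 in IRF1-guide clones 11 and 13 with hIFNb, against 290 and 341 in the same clones untreated, and 1042 and 1023 in control clones 1 and 4 with hIFNb, against 327 and 330 untreated, so that every clone reached about the same level, and the log2 change was 1.65 ± 0.11 (adjusted p = 5.69e-05 by limma).

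The other 6 of the 10 largest rises had log2 changes from 1.28 to 1.49 and adjusted p from 0.000364 to 0.0023 by limma. The TYMP domain, chr22:50523367-50551313, holds TYMP, which breaks down thymidine, SCO2, a copper chaperone of the respiratory chain, CIMAP1B and KLHDC7B. Its scores were 868 to 1114 in the 4 libraries with hIFNb, against 286 to 437 in the 4 untreated libraries. Within the body of LRRK1, a kinase gene, chr15:101056969-101081581 scored 527 to 781 in the 4 libraries with hIFNb, against 209 to 269 in the 4 untreated libraries. In SH3PXD2A, which encodes the invadopodium scaffold TKS5, chr10:103799406-103825779 scored 275 to 450 in the 4 libraries with hIFNb, against 128 to 176 in the 4 untreated libraries. At SCUBE1-AS1, chr22:43248281-43278381 scored 425 to 559 in the 4 libraries with hIFNb, against 132 to 246 in the 4 untreated libraries. On chromosome X, chrX:15140527-15162191, 108 kb from ASB9, scored 170 to 361 in the 4 libraries with hIFNb, against 71 to 114 in the 4 untreated libraries. The sixth, near ETS2, is described with the difference between the kinds of clone. Each of these 6 had all libraries with hIFNb above all untreated ones. Of the 212 domains called (9.13% of all peaks were called), treated and untreated libraries did not overlap at 173, which were 80 of the 108 rises and 93 of the 104 falls. They did not overlap at 21.3% of all domains and 12.4% of all peaks. None of the 10 lost its call without any one library.

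**Figure D2:**
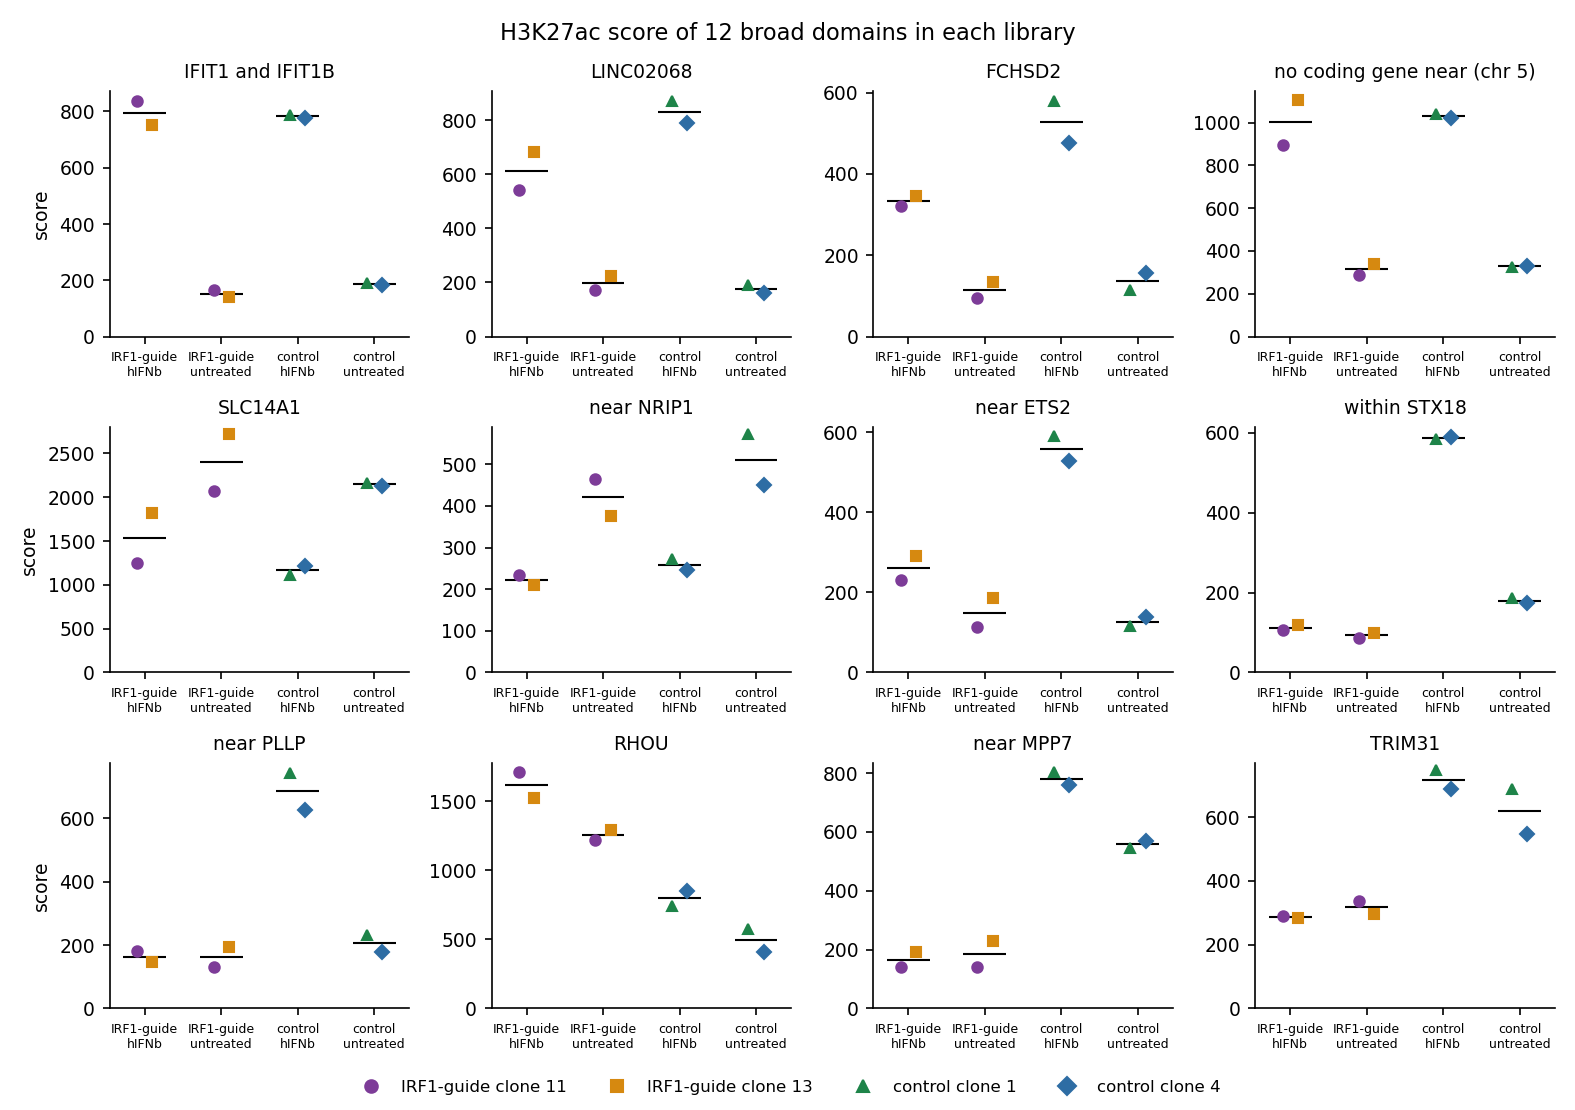
Score in each library (points, shape and colour by clone) and group mean (line) at 12 broad domains, with the axis of each panel starting at 0. In the top row all libraries with hIFNb stand above the untreated ones, at SLC14A1 and near NRIP1 they stand below, and in the remaining panels IRF1-guide and control libraries stand apart after hIFNb.

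Genes known to be induced by interferon were few in the domains, and most of the domains that held them rose. Of the list of 81 interferon-stimulated genes, 74 had their start in a peak and 10 in a broad domain, spread over 8 domains. Of these 8, 6 rose, none fell, and the median log2 change was 0.90, against 0.00 over all peaks (6.55% of all peaks were called higher). The list was chosen with earlier results of these data known, and its domains other than those of IFIT1, ISG15, IFITM and APOL2 were picked for description after their values were seen.

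The ISG15 domain, chr1:999619-1028155, holds ISG15, a ubiquitin-like antiviral protein, with HES4 and AGRN. It scored 885 to 1184 in the 4 libraries with hIFNb, against 378 to 532 in the 4 untreated libraries, a log2 change of 1.13 ± 0.14 (adjusted p = 0.000956 by limma). IFITM1, IFITM2 and IFITM3, membrane proteins that block virus entry, share chr11:305482-329610, with 1022 to 1455 in the 4 libraries with hIFNb, against 503 to 740 in the 4 untreated libraries and a change of 0.98 ± 0.12 (adjusted p = 0.00108, limma). IFIT2, from the same gene cluster as IFIT1, lies in chr10:89269719-89304455, which scored 771 to 1103 in the 4 libraries with hIFNb, against 425 to 539 in the 4 untreated libraries and changed by 0.92 ± 0.11 (adjusted p = 0.000788, limma). In all 3 domains the treated libraries lay above the untreated ones.

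ISG20, an exonuclease that degrades viral RNA, and AEN share chr15:88620314-88642747. The scores there were 486 to 801 in the 4 libraries with hIFNb, against 304 to 399 in the 4 untreated libraries, and the change was 0.89 ± 0.14 (adjusted p = 0.00423, limma). IFI16, a sensor of foreign DNA, lies in chr1:158997838-159019921, where libraries with hIFNb scored 646 and 718 in IRF1-guide clones, against 352 and 368 untreated, and 403 and 638 in control clones, against 274 and 443 untreated. Its change of 0.73 ± 0.18 (adjusted p = 0.0332, limma) was not called without any one library other than control clone 1 with hIFNb or untreated control clone 4 (adjusted p from 0.0745 to 0.106, log2 change from 0.56 to 0.77). The 2 domains that did not pass were those of PML, the organiser of nuclear bodies, with 0.40 ± 0.16 (adjusted p = 0.155, limma), and of APOL2, with 0.09 ± 0.10 (adjusted p = 0.609, limma). At PML every clone scored more with hIFNb than untreated, with 808 and 900, against 595 and 785, in IRF1-guide clones and 576 and 672, against 349 and 570, in control clones, and the call was made with the clone as block (adjusted p = 7.16e-05, limma).

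Of 25 interferon signalling genes, IRF1 and SOCS3 had their start in a domain. The IRF1 domain, chr5:132442197-132506408 (64212 bp), is the locus the guide targets, but H3K27ac there does not report the protein. Its scores were 2265 and 2033 in IRF1-guide clones 11 and 13 with hIFNb, against 1332 and 1187 in the same clones untreated, and 3003 and 2159 in control clones 1 and 4 with hIFNb, against 2014 and 1306 untreated. Every clone scored more with hIFNb, and the untreated control clone 1 came close to the lowest treated library without overlap. The log2 change was 0.71 ± 0.15 (adjusted p = 0.0165 by limma), and it was not called without IRF1-guide clone 11 with hIFNb or without untreated IRF1-guide clone 13 or without control clone 1 with hIFNb (adjusted p from 0.056 to 0.0661, log2 change from 0.59 to 0.67). SOCS3, the feedback inhibitor of cytokine signalling, changed by 0.19 ± 0.14 (adjusted p = 0.423, and adjusted p = 0.00378 with the block, both by limma). CIITA, the master coactivator of HLA class II genes, was the single member of the 25 antigen presentation genes in a domain. At chr16:10859812-10885719 the scores were 448 to 628 in the 4 libraries with hIFNb, against 205 to 393 in the 4 untreated libraries, a change of 0.84 ± 0.16 (adjusted p = 0.00957, limma).

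Domains that fell lay away from gene starts. Of the 104, 67 were outside coding genes, 29 in a coding gene body and 8 held a coding start. As shares of the domains in each position, 13.5% of those outside coding genes fell, against 6.94% of those in gene bodies and 1.498% of those with a coding start. Rises showed no such order, with 8.03%, 5.98% and 8.05%. The median log2 change was -0.18 outside coding genes, -0.11 in gene bodies and -0.02 at coding starts. Narrower peaks showed the same order of falls, with 3.94%, 2.31% and 0.371%.

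The largest fall called was in the body of TPRG1, at chr3:189313622-189343190, with 182 and 350 in IRF1-guide clones 11 and 13 with hIFNb, against 371 and 625 in the same clones untreated, and 214 and 333 in control clones 1 and 4 with hIFNb, against 506 and 556 untreated. Clones differed in level there, the treated libraries lay just below the untreated ones without overlap, and each clone scored less with hIFNb. The change of -0.96 ± 0.24 (adjusted p = 0.0322 by limma) was not called without any one library other than IRF1-guide clone 13 with hIFNb, untreated IRF1-guide clone 11 or control clone 4 with hIFNb (adjusted p from 0.0805 to 0.112, log2 change from -0.72 to -0.99). A domain 180.4 kb from NRIP1, a corepressor of nuclear receptors, at chr21:14863339-14884195, scored 234 and 211 in IRF1-guide clones 11 and 13 with hIFNb, against 465 and 377 in the same clones untreated, and 272 and 246 in control clones 1 and 4 with hIFNb, against 572 and 450 untreated. All treated libraries were below all untreated ones, and the change was -0.94 ± 0.13 (adjusted p = 0.00209 by limma). This domain and one at EHD4-AS1, chr15:41915475-41948107, were the 2 called lower in IRF1-guide clones taken alone. Neither of these IRF1-guide calls held, whichever single library was left out. The log2 change then ran from -0.76 to -1.06 near NRIP1 and from -0.65 to -0.74 at EHD4-AS1.

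SLC14A1, which encodes a urea transporter, was the single coding gene whose start lay in one of the 10 largest falls. Its domain, chr18:45717705-45811560 (93856 bp), scored 1251 and 1825 in IRF1-guide clones 11 and 13 with hIFNb, against 2072 and 2722 in the same clones untreated, and 1113 and 1214 in control clones 1 and 4 with hIFNb, against 2157 and 2133 untreated. The groups did not overlap, and the change was -0.77 ± 0.13 (adjusted p = 0.00628 by limma). ANKRD1, a nuclear ankyrin repeat protein induced by the YAP and TAZ coactivators, had the next largest fall called at a coding start. At chr10:90911126-90943095 the scores were 814 and 654 in IRF1-guide clones 11 and 13 with hIFNb, against 1134 and 884 in the same clones untreated, and 773 and 695 in control clones 1 and 4 with hIFNb, against 1131 and 1060 untreated, a change of -0.52 ± 0.12 (adjusted p = 0.0251 by limma) that was not called without any one library other than IRF1-guide clone 11 with hIFNb or untreated IRF1-guide clone 13 (adjusted p from 0.0566 to 0.0884, log2 change from -0.43 to -0.56).

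The other 6 falls at a coding start were smaller, on the log2 scale, and were chosen for description after their values were seen. TM4SF1, a surface protein of many carcinomas, fell by 0.35 and MYOF, which repairs membranes, by 0.48. IQGAP1, a scaffold of the actin cytoskeleton, fell by 0.51 and ALCAM, an adhesion molecule, by 0.43. The domains of TOX2 and of SLC22A2, an organic cation transporter, fell by 0.43 and 0.39. The MYOF domain scored 2212 to 2707 in the 4 libraries with hIFNb, against 3120 to 3653 in the 4 untreated libraries, and the adjusted p of the 6 ran from 0.00896 to 0.0466 by limma. MYOF was called without each library in turn. The other 5 were not called without any one library, except that TM4SF1, IQGAP1 and ALCAM were called without the treated IRF1-guide clone 13, ALCAM also without untreated IRF1-guide clone 13 or the treated control clone 1, and TOX2 without the treated IRF1-guide clone 11 (adjusted p from 0.0513 to 0.152 where not called).

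Further large falls had log2 changes from -0.76 to -0.88 and lay outside coding genes. The one 104 kb from ANKRD55, chr5:56337284-56365579, scored 461 to 620 in the 4 libraries with hIFNb, against 836 to 940 in the 4 untreated libraries. The one at HECTD2-AS1, chr10:91588255-91618439, scored 330 to 379 in the 4 libraries with hIFNb, against 445 to 691 in the 4 untreated libraries. The one 82.6 kb from RTN4IP1, chr6:106713085-106758238, scored 355 to 516 in the 4 libraries with hIFNb, against 645 to 797 in the 4 untreated libraries. The others lay at the pseudogene BTF3P2 on chromosome 14 and nearest to PFDN4, ADARB2 and CDIN1. The CDIN1 neighbour was not called without any one library other than untreated IRF1-guide clone 13 or untreated control clone 4 (adjusted p from 0.0596 to 0.106, log2 change from -0.68 to -0.97), while the other 6 were called without any one library.

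Over all 1450 domains the middle of the distribution lay below 0. The median log2 change with hIFNb was -0.10, the quartiles were -0.27 and 0.10, and 63.6% of domains had a change below 0, against 50.0% of all peaks, whose median was 0.00. Within single clones the median was -0.11 in IRF1-guide clone 11, -0.07 in clone 13, -0.12 in control clone 1 and -0.09 in clone 4. A lower score with hIFNb in every one of the 4 clones was seen in 635 domains (43.8%), against 20.4% of all peaks, and a higher score in every clone in 299 (20.6%), against 19.9%. The shift was not confined to the domains. Of peaks of 10 to 20 kb, 58.1% had a change below 0 and 34.8% a lower score in every clone. A lower score in every clone was seen in 27.5% of peaks of 5 to 10 kb and 14.0% of those below 5 kb. The share called lower was 7.17% at 20 kb and over, 5.83% at 10 to 20 kb, 4.07% at 5 to 10 kb and 1.23% below 5 kb. The test's error also differed with width. The median SE of the log2 change was 0.12 in the domains and 0.27 in peaks below 5 kb, and the part of that in the shares called was not tested. It was also 0.12 in the 239 narrower peaks with a mean score at or above the lower quartile of the domains. Of these 239, 4.60% were called higher and 2.09% lower, and 33.5% scored less with hIFNb in every clone. Scaling each library to a common median score moved the median change of all peaks by -0.08 and that of the domains to -0.17.

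**Figure D3:**
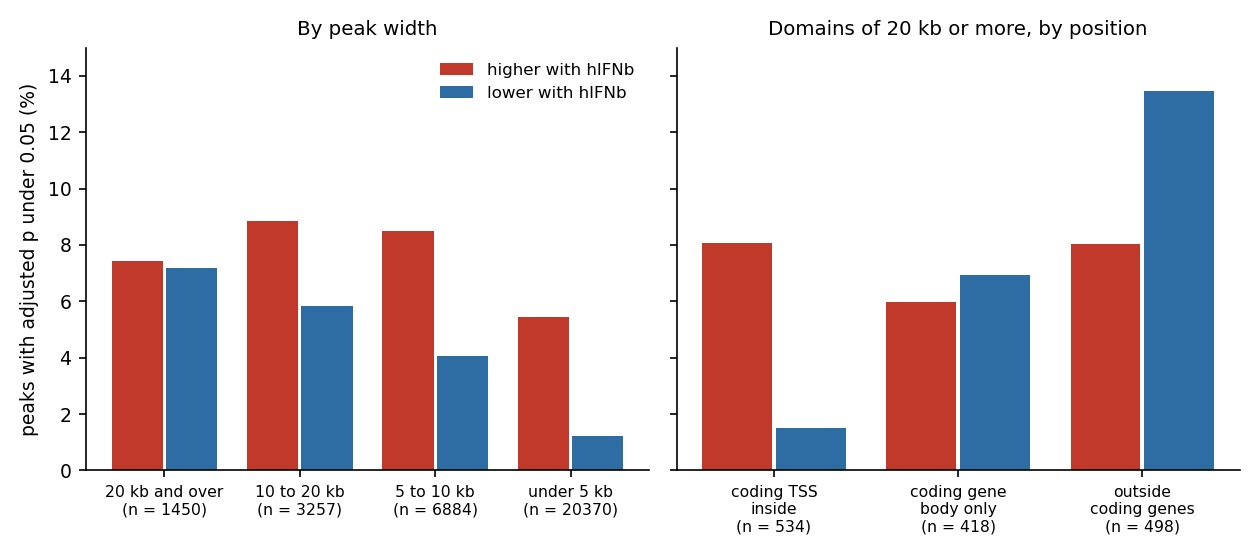
Percent of peaks called higher (red) and lower (blue) with hIFNb over all clones, by peak width on the left and, for the 1450 broad domains, by position on the right. Calls lower made up 7.17% of the domains and 1.23% of peaks below 5 kb, and 13.5% of domains outside coding genes against 1.498% of those with a coding start.

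Taken by kind of clone, 29 domains were called in IRF1-guide clones, 27 higher and 2 lower, and 92 in control clones, 63 higher and 29 lower. Over all peaks 1.2% were called higher and 0.025% lower in IRF1-guide clones, and 4.07% and 0.676% in control clones, in total 1.22% in IRF1-guide clones and 4.74% in control clones. With the clone as a block the domain counts were 176 higher and 365 lower in IRF1-guide clones (7.44% and 6.64% of all peaks, 14.1% in all), and 255 higher and 475 lower in control clones (13.4% and 11.3% of all peaks, 24.6% in all). These counts do not test whether the responses differ. Across the 1450 domains the responses of the 2 kinds of clone, which share no library, correlated at r = 0.839, and 82% had the same sign, against r = 0.593 and 71.2% over all peaks, all given as a description. Among the 108 rises the median response was 0.69 in IRF1-guide clones and 0.79 in control clones, and among the 104 falls -0.49 in IRF1-guide clones and -0.61 in control clones.

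Further domains were called higher in the test of IRF1-guide clones taken alone, which does not make a rise particular to those clones. The one 175 kb from SALL4 changed by 1.30 ± 0.17 in those clones (adjusted p = 0.00494 by limma) and the one 83.2 kb from TRIM69 by 1.27 ± 0.19 (adjusted p = 0.0101 by limma). In the bodies of KIAA0825 and of PIK3AP1, an adaptor of PI3K signalling, the changes were 1.49 ± 0.29 (adjusted p = 0.038 by limma) and 1.23 ± 0.20 (adjusted p = 0.0154 by limma). In control clones taken alone, falls included domains far from coding starts, with -0.90 ± 0.18 at 585 kb from SLC4A3 (adjusted p = 0.0195 by limma), -0.90 ± 0.22 at 1216 kb from ZEB2 (adjusted p = 0.0482 by limma) and -0.94 ± 0.19 at 583 kb from LMO4 (adjusted p = 0.0214 by limma).

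The number of calls in each kind of clone changed when single libraries were left out, which leaves 1 library in a group. Libraries of the other kind of clone enter these tests only through the shared estimate of the spread. Leaving one of them out therefore leaves the log2 changes as they were. In IRF1-guide clones 3 domains were called without clone 11 with hIFNb, 8 without clone 13 with hIFNb, 10 without untreated clone 11, 10 without untreated clone 13, 15 without control clone 1 with hIFNb and 16 without control clone 4 with hIFNb. In control clones 13 were called without clone 1 with hIFNb, 34 without clone 4 with hIFNb, 27 without untreated clone 1 and 33 without untreated clone 4. Over all clones the 212 calls became 97 when the treated IRF1-guide clone 11 was left out, 117 and 135 without untreated IRF1-guide clones 11 and 13, 110 and 140 without control clones 1 and 4 with hIFNb, and 106 and 130 without the same control clones untreated. Restricted to the 4 libraries of each kind, the fit called 2 domains in IRF1-guide clones, at 2 rises, and 50 in control clones.

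The difference between the responses was tested directly, as the response in IRF1-guide clones minus that in control clones. Limma called none of the 1450 domains, and 32 (2.21%) had an unadjusted p under 0.05, against 3.94% of all peaks. No peak of the whole table was called (0.0%). With the clone as a block, 28 domains were called, 23 with a lower response in IRF1-guide clones and 5 with a higher one, against 0.657% and 0.106% of all peaks, 0.763% in all. In all 23 the log2 change in control clones was above 0, and in IRF1-guide clones it was above 0 in 18 and below 0 in 5. Of the 5 with a higher response, both changes were above 0 in 3, both were below 0 in 1, and in 1 the change was above 0 in IRF1-guide clones and below 0 in control clones. The 3 domains with the smallest p without the block, none of which passed, were called with it.

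Near PLLP, which encodes the membrane protein plasmolipin, chr16:57297385-57320315 lies 12.7 kb from the gene's start and holds the tRNA gene TRL-CAG2-2. Its scores were 181 and 146 in IRF1-guide clones 11 and 13 with hIFNb, against 130 and 193 in the same clones untreated, and 745 and 626 in control clones 1 and 4 with hIFNb, against 231 and 179 untreated. The treated control clones stood alone, while the treated IRF1-guide clones lay among the untreated libraries. The difference in response was -1.71 ± 0.33 (adjusted p = 0.711 by limma, and adjusted p = 8.01e-05 with the clone as block). In the body of STX18, a SNARE protein of the endoplasmic reticulum, chr4:4488262-4508570 scored 106 and 118 in IRF1-guide clones 11 and 13 with hIFNb, against 86 and 100 in the same clones untreated, and 586 and 590 in control clones 1 and 4 with hIFNb, against 186 and 174 untreated. Here too the treated control clones stood alone, with a difference in response of -1.44 ± 0.26 (adjusted p = 0.711 by limma, and adjusted p = 0.000155 with the block).

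ETS2, a transcription factor gene of the ETS family, lies on chromosome 21 in one of a pair of adjacent domains. The one without the gene start, chr21:38732581-38757932, scored 231 and 291 in IRF1-guide clones 11 and 13 with hIFNb, against 113 and 186 in the same clones untreated, and 589 and 528 in control clones 1 and 4 with hIFNb, against 116 and 138 untreated. Both kinds of clone scored more with hIFNb, the control clones by a larger step, with a difference in response of -1.30 ± 0.35 (adjusted p = 1 by limma, and adjusted p = 0.000548 with the block). The domain that holds the ETS2 start, chr21:38758577-38822500, was chosen after its values were seen. It scored 1847 and 1844 in IRF1-guide clones 11 and 13 with hIFNb, against 1679 and 1498 in the same clones untreated, and 2545 and 2339 in control clones 1 and 4 with hIFNb, against 1549 and 1572 untreated, with a smaller difference in the same direction, -0.43 ± 0.17 (adjusted p = 1 by limma, and adjusted p = 0.0241 with the block).

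The domain chr17:37623061-37679670, with the start of the RNA helicase gene DDX52, was also chosen after its values were seen. It scored 1887 and 1561 in IRF1-guide clones 11 and 13 with hIFNb, against 1055 and 1050 in the same clones untreated, and 2447 and 2470 in control clones 1 and 4 with hIFNb, against 1065 and 1082 untreated, a change over all clones of 0.95 ± 0.09 (adjusted p = 0.000286 by limma). Treated and untreated libraries of the domain did not overlap.

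**Figure D4:**
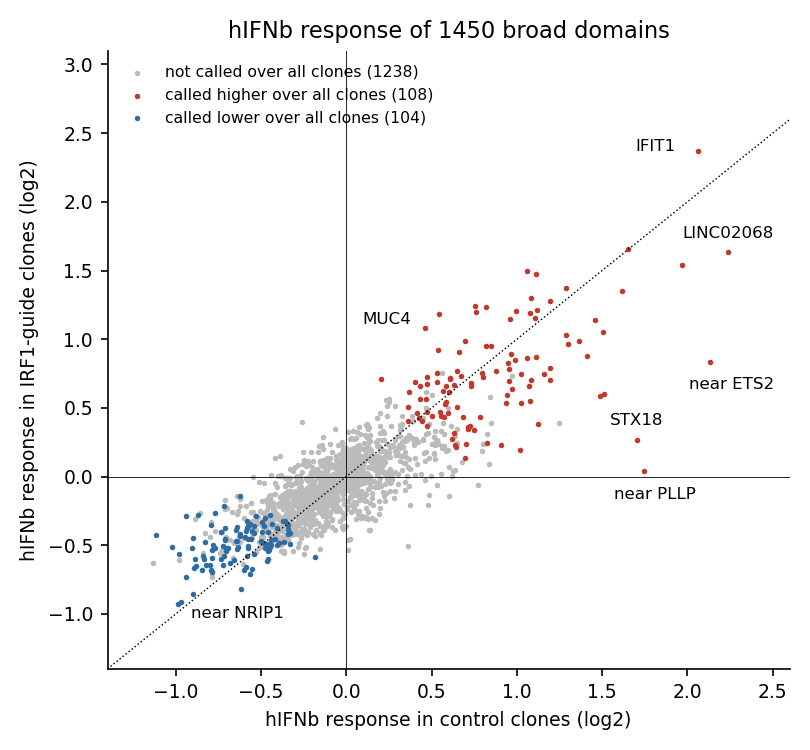
Log2 change with hIFNb at each of the 1450 broad domains in IRF1-guide clones (vertical axis) against control clones (horizontal axis), coloured by the call over all clones, with equal responses on the dotted line. Most domains lie along the line, while those near PLLP, in STX18 and near ETS2 lie far below it, at differences of -1.71, -1.44 and -1.30.

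Between IRF1-guide and control clones after hIFNb, 38 domains differed, 8 higher and 30 lower in IRF1-guide clones. Among all peaks 0.238% were called higher and 2.19% lower, 2.43% in all, and 2.62% of the domains were called. Libraries of the 2 kinds of clone after hIFNb did not overlap at 44.4% of all domains and 43.9% of all peaks. Over all libraries they did not overlap at 10.8% of domains and 8.87% of peaks. The lower ones included the domains in STX18, near PLLP and near ETS2 described above, a domain near MPP7 and that of TRIM31. The higher ones were RHOU, 4 others on chromosome 1, and domains near ASB1, at ZBTB38 and in ZMIZ1. Without control clone 1 with hIFNb, or without control clone 4 with hIFNb, limma called none of the domains. Leaving out the treated IRF1-guide clone 11 gave 9 calls, and leaving out the treated clone 13 gave 6, all lower. Only the 4 libraries with hIFNb gave 19 calls, and median scaling 25.

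A domain 50.1 kb from MPP7, a scaffold protein of cell polarity, at chr10:28353184-28382464, scored 140 and 191 in IRF1-guide clones 11 and 13 with hIFNb, against 802 and 758 in control clones 1 and 4 with hIFNb. Untreated it scored 140 and 230 in IRF1-guide clones, against 546 and 569 in control clones. The 2 kinds of clone were apart with and without hIFNb, as over all libraries at 10.8% of domains and 8.87% of all peaks. The log2 difference was -2.25 ± 0.24 after hIFNb (adjusted p = 0.00606 by limma) and -1.63 ± 0.24 untreated (adjusted p = 0.0532 by limma).

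TRIM31, a ubiquitin ligase of innate immune signalling, lies in chr6:30090757-30132290. Its scores were 289 and 285 in IRF1-guide clones with hIFNb, against 748 and 688 in control clones with hIFNb, and 338 and 297 in IRF1-guide clones untreated, against 690 and 549 in control clones untreated. The kinds of clone did not overlap, which over all libraries held at 10.8% of domains and 8.87% of all peaks. The difference was -1.32 ± 0.17 after hIFNb (adjusted p = 0.008 by limma) and -0.96 ± 0.17 untreated (adjusted p = 0.0807 by limma). The STX18 domain differed by -2.38 ± 0.18 after hIFNb (adjusted p = 0.00287 by limma) and the PLLP neighbour by -2.06 ± 0.24 (adjusted p = 0.00655 by limma). Untreated, the differences were -0.95 ± 0.18 in STX18 (adjusted p = 0.101 by limma) and -0.36 ± 0.24 near PLLP (adjusted p = 0.589 by limma).

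RHOU encodes a small GTPase, and its domain, chr1:228608440-228648788, had the smallest adjusted p of the 8 higher ones. The scores were 1714 and 1527 in IRF1-guide clones with hIFNb, against 743 and 849 in control clones with hIFNb, and 1222 and 1294 in IRF1-guide clones untreated, against 578 and 405 in control clones untreated. All IRF1-guide libraries stood above all control libraries, and over all libraries the kinds did not overlap at 10.8% of domains and 8.87% of all peaks. The difference was 1.03 ± 0.18 after hIFNb (adjusted p = 0.019 by limma) and 1.38 ± 0.18 untreated (adjusted p = 0.0532 by limma).

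Of the 8 domains called higher, 5 lay on chromosome 1, where the median difference of all 148 domains was 0.15 and that of the 3153 narrower peaks 0.16, IRF1-guide minus control. They were RHOU, HSPG2, which encodes the basement membrane proteoglycan perlecan, a second domain in the HSPG2 body, SLC1A7, a glutamate transporter, and MIR4425. With each library centred on the median of its chromosome, 25 domains were called, 6 higher and 19 lower, and the RHOU difference after hIFNb had an adjusted p of 0.0597 by limma. The part of chromosome 1 as a whole in these calls was not tested further. Lower calls were on 15 chromosomes, none on chromosome 1. Besides those named they included domains at FAM110C (-1.13 ± 0.19, adjusted p = 0.015 by limma), near HS3ST1, which modifies heparan sulfate (-1.31 ± 0.24, adjusted p = 0.0212 by limma), near LIFR, a cytokine receptor (-1.10 ± 0.18, adjusted p = 0.013 by limma), at LOC285766 near DUSP22 (-1.41 ± 0.21, adjusted p = 0.0113 by limma) and in the collagen receptor gene ITGA2 (-1.11 ± 0.24, adjusted p = 0.0437 by limma).

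Untreated, limma called no domain between IRF1-guide and control clones, while 164 (11.3%) had an unadjusted p under 0.05, against 12.0% of all peaks, of which also none was called (0.0%). In the test of clone means, 2 clones against 2, 5 domains were called, 1 higher and 4 lower, where 0.516% of all peaks were called, 0.0594% higher and 0.457% lower. RHOU was higher (1.20 ± 0.15, adjusted p = 0.0366 by limma), and the domains near MPP7 (-1.94 ± 0.22, adjusted p = 0.0366), in STX18 (-1.67 ± 0.19, adjusted p = 0.0366), near PLLP (-1.21 ± 0.19, adjusted p = 0.0439) and at TRIM31 (-1.14 ± 0.17, adjusted p = 0.0398) were lower. Leaving out any one clone ended all 5 calls, with adjusted p from 0.159 to 0.416.

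Clones of the same kind also differed, and in a pattern by chromosome. On chromosome 7 the median of 55 domains was 0.49 higher on the log2 scale in control clone 1 than in clone 4, and 0.33 lower in IRF1-guide clone 11 than in clone 13. On chromosome 20 the median of 64 domains was 0.33 higher in clone 11 than in clone 13. On chromosome 1 clone 1 lay 0.25 below clone 4. Narrower peaks on the same chromosomes had medians of 0.35, -0.27, 0.32 and -0.29 for the same differences. The pattern was present with and without hIFNb, at 0.47 and 0.49 for clone 1 minus clone 4 on chromosome 7. Over all domains the median absolute log2 difference was 0.19 between clones 11 and 13 and 0.20 between clones 1 and 4 with hIFNb. One domain, chr17:50625499-50711742, with the starts of the drug efflux gene ABCC3 and of ANKRD40, scored 4894 and 5116 in IRF1-guide clones 11 and 13 with hIFNb and 5155 and 2733 in control clones 1 and 4 with hIFNb, so that clone 4 stood apart. Untreated the scores were 5014 and 4982 in IRF1-guide clones and 5159 and 2917 in control clones.

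**Figure D5:**
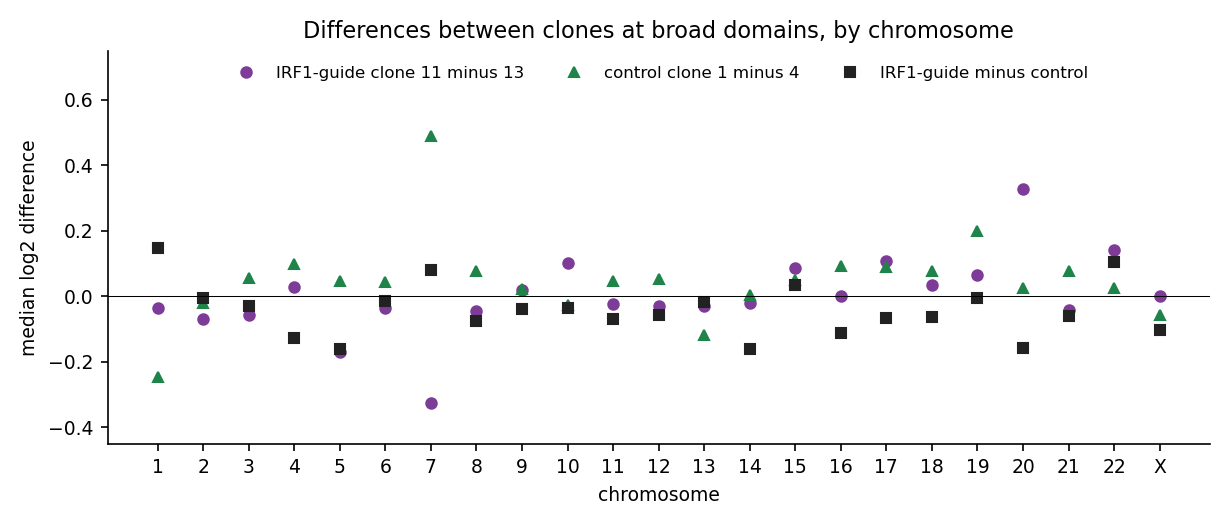
Median log2 difference of the broad domains on each chromosome between IRF1-guide clones 11 and 13, between control clones 1 and 4, and between IRF1-guide and control clones. Chromosome 7 stands out at 0.49 for clone 1 minus clone 4 and -0.33 for clone 11 minus clone 13, and chromosome 20 at 0.33 for clone 11 minus clone 13.

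Other gene lists, likewise chosen with earlier results known, had fewer calls. Over all peaks 6.55% were called higher and 2.58% lower. Of 21 genes of glucose and amino acid metabolism, 8 lay in domains, of which 2 rose and none fell (median 0.06). HK2, the first enzyme of glycolysis, lay in chr2:74832168-74877994, with 1189 to 1747 in the 4 libraries with hIFNb, against 860 to 1204 in the 4 untreated libraries, a change of 0.51 ± 0.11 (adjusted p = 0.0202 by limma) that was not called without IRF1-guide clone 11 with hIFNb or without untreated IRF1-guide clone 13 or without control clone 1 with hIFNb or without untreated control clone 4 (adjusted p from 0.0634 to 0.0781, log2 change from 0.43 to 0.48). The other rise was at TXNIP, an inhibitor of thioredoxin and of glucose uptake, with 816 to 1086 in the 4 libraries with hIFNb, against 566 to 705 in the 4 untreated libraries and a change of 0.55 ± 0.11 (adjusted p = 0.0137 by limma), not called without IRF1-guide clone 11 with hIFNb or without untreated IRF1-guide clone 11 or without control clone 4 with hIFNb or without untreated control clone 1 (adjusted p from 0.0512 to 0.061, log2 change from 0.48 to 0.53), and it was chosen for naming after its value was seen. SLC2A1, the glucose transporter GLUT1, differed by 0.02 ± 0.10 (adjusted p = 0.905 by limma). Of 32 lipid genes 2 lay in domains. ELOVL1, a fatty acid elongase, changed by 0.42 ± 0.11 (adjusted p = 0.0438 by limma), which was not called without any one of the 8 libraries (adjusted p from 0.059 to 0.139, log2 change from 0.36 to 0.48), and ACSL5, an acyl-CoA synthetase, by -0.32 ± 0.09 (adjusted p = 0.0593, and adjusted p = 5.22e-06 with the block, both by limma).

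Of 19 xenobiotic and retinoid genes 4 lay in domains and 1 rose. This was CYP1B1, a cytochrome P450, at chr2:38068814-38125398, with 1567 to 1833 in the 4 libraries with hIFNb, against 936 to 1156 in the 4 untreated libraries, a change of 0.69 ± 0.10 (adjusted p = 0.0028 by limma). Of 28 mucin and surface genes 5 lay in domains and 1 rose. MUC4, a membrane mucin, scored 1490 and 1048 in IRF1-guide clones 11 and 13 with hIFNb, against 762 and 458 in the same clones untreated, and 1905 and 1202 in control clones 1 and 4 with hIFNb, against 1173 and 1030 untreated. Each clone scored more with hIFNb, while levels differed between clones, with a change of 0.77 ± 0.20 (adjusted p = 0.0357 by limma) that was not called without any one library other than IRF1-guide clone 13 with hIFNb, untreated IRF1-guide clone 11 or control clone 4 with hIFNb (adjusted p from 0.0795 to 0.125, log2 change from 0.59 to 0.82).

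No domain was called in either direction among those of keratin, junction and adhesion genes (12 genes of 29), growth factor signalling (11 of 35), ductal and endodermal transcription factors (4 of 26), AP-1 and immediate early genes (4 of 19), NF-kB and inflammatory genes (6 of 28), basal and mesenchymal genes (4 of 20) and non-coding RNA genes (7 of 13). Their median log2 changes ran from -0.15 for the NF-kB list to 0.08 for the AP-1 list. With the clone as block, 40.2% of all 1450 domains and 15.9% of all peaks were called lower. Among these lists and the mucin list, it called lower 5 of 11 growth factor, 3 of 6 NF-kB and 3 of 5 mucin and surface domains. It also called lower 1 domain each of the keratin, non-coding RNA, ductal and endodermal, and basal and mesenchymal lists. The block called higher 2 keratin, junction and adhesion domains, 2 of non-coding RNA genes and 1 each of the growth factor, AP-1 and mucin lists. The same fit called higher 19.2% of all domains and 16.6% of all peaks. For example, the domain of EPHA2, an ephrin receptor, changed by -0.17 ± 0.08 (adjusted p = 0.222, and adjusted p = 0.00147 with the block, both by limma), and that of the chemokine CXCL8 by -0.36 ± 0.11 (adjusted p = 0.0669, and adjusted p = 2.69e-06 with the block). No domain on any list was called between IRF1-guide and control clones after hIFNb.

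Domains also held 68 of the 1562 miRNA hairpins of the RefSeq table, in 61 domains. The mature miRNAs of 4 domains are printed with the seed, bases 2 to 8, in capitals (RefSeq, GRCh38.p14). MIR21 lies in one of the 10 domains of highest score, MIR30A and MIR4425 in domains called with hIFNb, and MIR221 and MIR222 share a domain and a seed. All but MIR21 and MIR4425 were chosen after their values were seen.
hsa-miR-21-5p, chr17:59841273-59841294, plus strand: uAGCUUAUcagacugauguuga
hsa-miR-30a-5p, chr6:71403595-71403616, minus strand: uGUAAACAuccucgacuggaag
hsa-miR-4425, chr1:25023552-25023573, plus strand: uGUUGGGAuucagcaggaccau
hsa-miR-221-3p, chrX:45746180-45746202, minus strand: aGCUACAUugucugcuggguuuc
hsa-miR-222-3p, chrX:45747036-45747056, minus strand: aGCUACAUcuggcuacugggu

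The MIR21 domain, chr17:59745462-59862038, overlaps the body of VMP1 and scored 5380 and 5237 in IRF1-guide clones 11 and 13 with hIFNb, against 6157 and 5755 in the same clones untreated, and 5121 and 4944 in control clones 1 and 4 with hIFNb, against 5970 and 5855 untreated. Each clone scored less with hIFNb. The change of -0.20 ± 0.07 did not pass (adjusted p = 0.112 by limma) and did with the clone as block (adjusted p = 4.24e-05). MIR30A, in chr6:71400599-71421613, scored 346 to 422 in the 4 libraries with hIFNb, against 477 to 612 in the 4 untreated libraries, a change of -0.48 ± 0.13 (adjusted p = 0.0475 by limma) that was not called without any one library other than untreated IRF1-guide clone 13 (adjusted p from 0.0569 to 0.151, log2 change from -0.39 to -0.55).

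MIR4425, in chr1:25015985-25036948, scored 463 and 427 in IRF1-guide clones 11 and 13 with hIFNb, against 185 and 217 in the same clones untreated, and 222 and 183 in control clones 1 and 4 with hIFNb, against 87 and 122 untreated. Each clone scored more with hIFNb, and the IRF1-guide clones stood higher than the control clones in both states. The change was 1.05 ± 0.15 with hIFNb (adjusted p = 0.00234 by limma) and the difference of IRF1-guide minus control clones 1.14 ± 0.22 after hIFNb (adjusted p = 0.0249 by limma). The MIR221 and MIR222 domain, chrX:45733648-45812594 (78947 bp), scored 1119 to 1440 in the 4 libraries with hIFNb, against 1308 to 1448 in the 4 untreated libraries and changed by -0.14 ± 0.10 (adjusted p = 0.438, and adjusted p = 0.0423 with the block, both by limma).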

How the data were processed

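H3K27ac ChIP-seq of 8 libraries from 4 CFPAC1 clones was analysed. Per the submitters' processing notes, the aligner was Bowtie2 and the build GRCh38 (hg38). The deposited table gives a normalised score per peak and library, rounded to whole numbers by the authors. The normalisation is not given in the sources used here, and read depth is unknown, so no counting interval is given. Total scores per library ran from 3277561 to 3460390. All value columns were matched to a sample by name.

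Domains are peaks of at least 20000 bp. Scores were tested as log2(score + 1) with limma 3.58.1 in R 4.3.3, in 1 fit of the 4 groups over 8 libraries, with Benjamini-Hochberg adjustment over 31961 peaks in each contrast and no filter on low values. A fold change on this scale understates that of low peaks. Genotype was also tested on clone means. For the response over all clones, the fit of 4 groups was tried on simulated data with independent libraries and no differences between clones. The fits with the clone as block and on clone means were not tried in this way. Treated and untreated libraries of a clone are paired by the clone, as the labels say. Their deviations from the group means correlated over all peaks at 0.392 in IRF1-guide clones and 0.437 in control clones. Over the broad domains these correlations were 0.811 and 0.827. The main fit does not use this pairing. The clone was therefore used as a block in the alternative fit. Other alternatives were a pseudocount of 10, a mean score of at least 20, median scaling, only the 4 libraries compared, widths of 15 and 30 kb, and leaving out each library. Chromosome centring, and the block with median scaling, were chosen after seeing the data.

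Named by rule were the 10 widest and 10 highest domains, up to 10 rises and 10 falls called in each contrast, the 3 of smallest p where none was called, the 3 highest of each gene list, and those of IRF1, SOX9, KRT19 and MYC where they are domains. A domain of this rule is not reported here. The members and lists were chosen with earlier results of these data known. Gene starts came from RefSeq promoters and, where those lacked a gene, from the distances in the deposited table. Of 20056 coding genes 1832 had neither and could not be placed.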

Additional observations from a re-analysis of the deposited data

Results flagged for a closer look

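With the clone as a block, the response to hIFNb differed between IRF1-guide and control clones (log2 change in IRF1-guide clones minus that in control clones) at 11 of the domains named above, while none passed without the block. The difference was negative at 8 of them. It was -0.60 at LINC02068, -1.44 in the body of STX18, -0.67 near LIFR, -0.91 at LOC285766, -1.71 near PLLP, -0.49 at DDX52, -1.30 near ETS2 and -0.43 at ETS2. At these, both control clones had a larger log2 change than both IRF1-guide clones. The difference was positive at MUC4 (0.62), near RTN4IP1 (0.69) and at NPEPPS (0.32), where the scores are uncertain because of a near-identical copy.

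At 5 further domains, sought only among those named, both clones of one kind moved one way and both of the other kind the opposite way. The difference in response was called at none of them, with adjusted p = 1 without the block and from 0.264 to 0.62 with it (limma), and the directions themselves were not tested. The difference was 0.14 at SLC2A1, -0.36 at TRIM31, -0.11 at TMEM75, 0.15 at EHF and 0.26 near ARFGEF2. At SLC2A1 the log2 changes were 0.01 and 0.18 in IRF1-guide clones 11 and 13 and -0.01 and -0.08 in control clones 1 and 4. At TRIM31 they were -0.23 and -0.06 in IRF1-guide clones and 0.12 and 0.33 in control clones.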

How the results depend on the processing

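As a share of the 1450 domains, calls over all clones (14.6%) became 59.4% with the clone as replicate block and 67.6% with block and median scaling. In IRF1-guide clones (2.0%) they became 37.3% with the block, 43.5% with block and median scaling, 1.31% with median scaling and 0.138% in the 4 libraries alone. In control clones (6.34%) they became 50.3% with the block, 58.3% with both and 3.45% in the 4 libraries alone. The difference in response (0%) became 1.93% with the block, with or without scaling. IRF1-guide minus control after hIFNb (2.62%) became 1.72% with median scaling, 1.72% centred by chromosome and 1.31% in the 4 libraries alone. The test of clone means (0.345%) gave 0.621% with a pseudocount of 10, and 0% where only peaks with a mean score of at least 20 were kept. Median scaling split the control calls into 45 higher and 42 lower. Leaving out 1 library gave 6.69% to 10.6% over all clones, 0.207% to 1.59% in IRF1-guide clones, 0.897% to 5.59% in control clones and 0% to 2.34% for IRF1-guide minus control after hIFNb. Leaving out 1 clone gave 0% for clone means. The causes were not tested, and shares of all peaks called were not counted for these settings other than the block. The share of score in domains of 15 kb or more was 43.4% and 44.4% in IRF1-guide clones with hIFNb and untreated, and 43.2% and 44.9% in control clones. At 30 kb it was 21.8% and 22.2% in IRF1-guide clones and 21.5% and 22.5% in control clones. All 212 domains called over all clones were also called with the block, 185 with median scaling and 182 centred by chromosome. No named domain changed sign among called values. Limits are 2 clones a kind, unknown depth and an unknown normalisation.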
